A study of Arabidopsis thaliana with 4 samples.

Results

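In Arabidopsis thaliana plants, 117 probe sets had a higher signal after bleomycin in wild type and a signal that stayed within a narrow band in the ku80 mutant. For 67 of these 117, untreated ku80 plants already stood within 1.41-fold of the level of drug-treated wild type, or above it. In only 9 of the 117 did untreated ku80 stand within 1.41-fold of the low level of untreated wild type. The 117 came out of 22746 gene probe sets, of which 15350 had an intensity above 28 on at least 1 array and are called measured here. Over all measured probe sets, untreated ku80 stood within 1.41-fold of treated wild type in 67.3% and of untreated wild type in 78.8%. A probe set with similar wild type arrays can count for both. Untreated wild type was the lowest array in 114 of the 117, and it was also dimmer by the medians of spike-in and GAPDH control probe sets. They were chosen from the intensities of all 4 arrays: values under 28 were set to 28 (the floor), log2 was taken, and a member had to be at least 1.3 higher with bleomycin than without it in wild type (2.46-fold) and between -0.5 and 0.5 in ku80 (within 1.41-fold). The contrasts that chose the members therefore describe them and test nothing.

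The 4 groups held 1 ATH1 array each: ku80 with bleomycin, ku80 without it, wild type with bleomycin and wild type without it. Every plant was of accession Ws-2, and the ku80 line carried a T-DNA insertion in AT1G48050. Treated plants received bleomycin at 1 mg per litre for 3 days, and RNA came from whole plants at growth stage 1.06, grown on MS medium at 23 °C with 16 hours of light. The labels give 20 pooled plants and no replicate arrays. No group therefore has a measure of the spread between pools, and no comparison has a p-value or an error. The KU80 transcript could not serve as a check of the mutant, because 0 probe sets carry that gene's name here. In such whole-plant RNA, fewer cells of a type and less RNA per cell cannot be told apart.

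Bleomycin is a glycopeptide that cuts DNA and also gives rise to reactive oxygen. KU80 and its partner KU70 form a ring that slides onto broken DNA ends and opens the end joining pathway, and in plants the same complex also protects telomeres. A gene can be unresponsive to a drug in a mutant in more than one way: it can stay low on both arrays, or it can be high already without the drug, and the level in untreated ku80 tells these patterns apart.

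Among the 359 measured probe sets that were at least 1.3 higher with bleomycin in wild type (2.34% of the measured ones), 117 lay within the band of -0.5 to 0.5 in ku80. A further 110 lay above 0.5 and under 1.3 in ku80, 85 reached 1.3 there as well, and 47 were below -0.5. Of all measured probe sets, 71.3% lay within that band in ku80, and the members make up 0.762% of them. Over the members, the wild type difference ran from 1.3 to 4.09 on the log2 scale with a median of 1.56, and the ku80 difference had a median of 0.15, with 70 above 0 and 47 below.

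**Figure D1:**
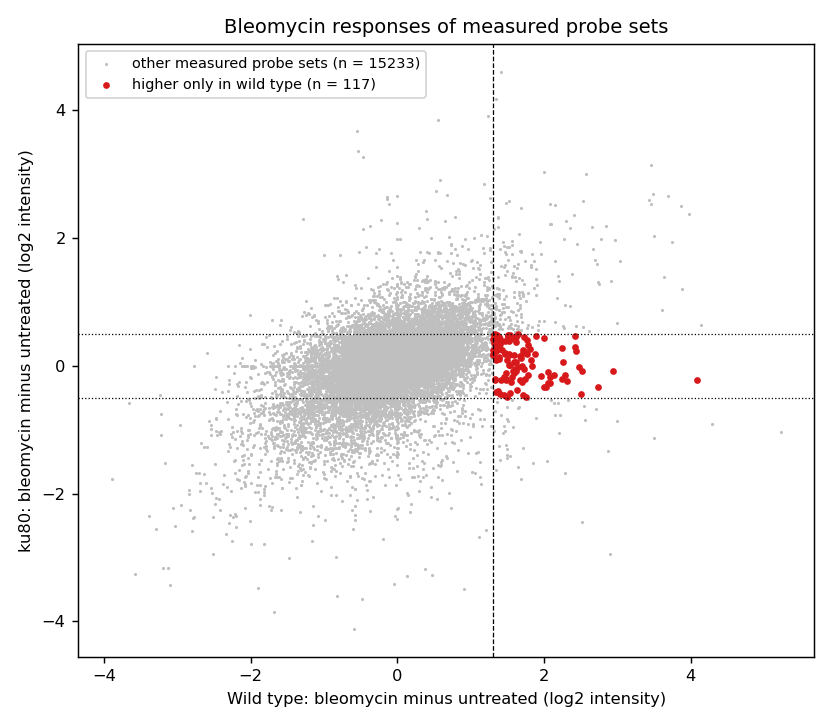
Each point is a measured probe set, with the bleomycin minus untreated difference in wild type on the x axis and in ku80 on the y axis, both in log2 intensity. The dashed line marks 1.3 and the dotted lines mark -0.5 and 0.5, and the 117 red points in the band to the right are the probe sets higher only in wild type.

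The thresholds run through a continuous cloud of values. Just inside the wild type threshold stood AT2G42350, AT4G26910 and AT1G65690 (log2 differences of 1.3, 1.31 and 1.31), and just outside it stood AT2G07719 (under 1.3 before rounding), AT5G37740 (1.29) and AT5G60460 (1.29). At the upper edge in ku80, AT5G25450, AT2G27730 and AT3G51440 were inside (0.48, 0.48 and 0.46), while the autophagy gene APG8A, AT5G27760 and AT2G41090 were outside (0.51, 0.54 and 0.56). At the lower edge AT5G10580, AT5G52750 and AT1G22890 were inside (-0.50, -0.49 and -0.46), and AT2G38870, AT1G33055 and AT3G03270 were outside (-0.52, -0.53 and -0.54).

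Of the 117 members, 66 have 1 gene name in the platform table, 1 matches several genes and 50 are unnamed here. The share of members among measured probe sets with 1 gene was 0.79%. In 19 members the untreated wild type array was at the floor, so their wild type differences are lower bounds. The same holds for their ku80 minus wild type differences without the drug, except at AT1G15790, where both untreated arrays were at the floor. The other 98 were above the floor on all 4 arrays. Only 4 members have probe sets that can bind several transcripts.

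The members fell into 4 patterns by the level in untreated ku80, where equal means within 0.5 on the log2 scale. Untreated ku80 equalled treated wild type in 57 of 117 members (48.7%, exact 95% binomial interval 39.4% to 58.1%) and lay above it in 10 (8.55%). It lay between the wild type arrays in 41 (35.0%) and equalled untreated wild type in 9 (7.69%, interval 3.58% to 14.1%). The intervals cover only the counting of members and treat them as independent draws. Members are not independent of each other, and the 117 are all that the rule gave. The intervals therefore say nothing of the spread between plant pools. No member had untreated ku80 more than 0.5 below untreated wild type. Over all 117, the median of untreated ku80 minus treated wild type was -0.38 on the log2 scale. Among the other 242 probe sets that were at least 1.3 higher in wild type, untreated ku80 equalled treated wild type in 14% and untreated wild type in 38.4%. For the 85 that also reached 1.3 in ku80, these shares were 0% and 58.8%. Over all 15350 measured probe sets they were 67.3% and 78.8%, since a probe set with similar wild type arrays can count for both.

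Measured as a share of the wild type difference on the log2 scale, untreated ku80 already stood at a median of 75.8% of it over the members, with a middle range of 53.8% to 107% and extremes of -2.37% and 214%. The median difference of ku80 minus wild type over the members was 1.21 without bleomycin (-0.01 over all measured probe sets) and -0.18 with it (0.02 over all measured). Untreated ku80 was at least 2-fold above untreated wild type in 69 members, against 2.45% of measured probe sets. Treated ku80 was at least 2-fold below treated wild type in 14 members, against 1.95%. These differences use the same 4 arrays as the choice of members, and their difference is tied by arithmetic to the responses that the choice fixed, so they are descriptions.

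**Figure D2:**
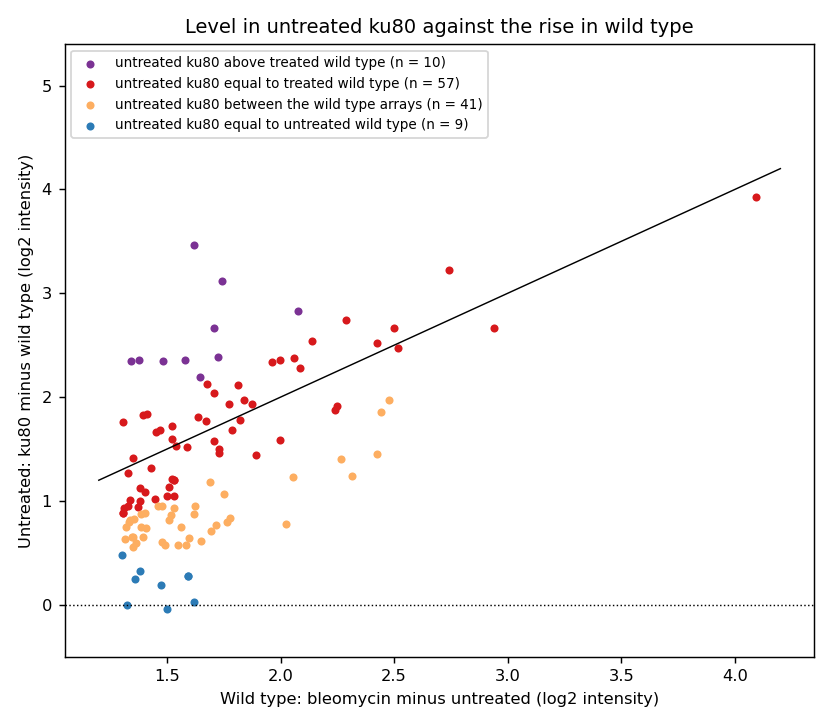
Each of the 117 members is a point, with the bleomycin minus untreated difference in wild type on the x axis and the ku80 minus wild type difference without bleomycin on the y axis, both in log2 intensity. On the solid line untreated ku80 equals treated wild type and on the dotted line it equals untreated wild type; 57 members (red) lie near the solid line, 10 (purple) above it, 41 (orange) between the lines and 9 (blue) near the dotted one.

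Probe sets chosen by the mirrored rules also often had the unresponsive genotype's untreated array at the level of the other genotype's treated array. Of 54 probe sets at least 1.3 higher with bleomycin in ku80 and within 0.5 of 0 in wild type, untreated wild type equalled treated ku80 in 16 (29.6%) and untreated ku80 in 15 (27.8%). Of 244 probe sets at least 1.3 lower with bleomycin in wild type and within 0.5 of 0 in ku80, untreated ku80 equalled treated wild type in 74 (30.3%) and untreated wild type in 70 (28.7%). The members' 48.7% was above both shares at the treated level and their 7.69% below both at the untreated level. With 1 array per group these gaps were not tested.

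The untreated wild type array was the lowest of the 4 arrays in 114 of the 117 members, and that array also stood apart in control probe sets. Bacterial spike-ins added at hybridization (14 probe sets above the floor on every array) were brighter than on untreated wild type by a median of 1.42-fold in ku80 with bleomycin, 1.84-fold in untreated ku80 and 1.64-fold in wild type with bleomycin. The 5 GAPDH control probe sets, which read a glycolysis enzyme, were brighter by medians of 1.82-fold, 1.69-fold and 1.96-fold on the same arrays. Actin controls were closer, at 1.18-fold, 1.04-fold and 1.11-fold. The 5 ubiquitin controls had medians of 1.13-fold, 1.33-fold and 1.27-fold, and each of them was brighter than on untreated wild type on every other array. When each array was scaled to equal spike-in signal, an alternative chosen after seeing the data, all 117 members kept a higher value in treated than in untreated wild type, and 21 of them were still at least 1.3 higher. In that scaling 59 of the 117 lay within -0.5 to 0.5 in ku80, and untreated ku80 was above untreated wild type in 78. The median of all measured probe sets was then -0.75 for bleomycin in wild type and -0.87 for ku80 minus wild type without the drug. The part of this array in the pattern was not tested.

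**Figure D3:**
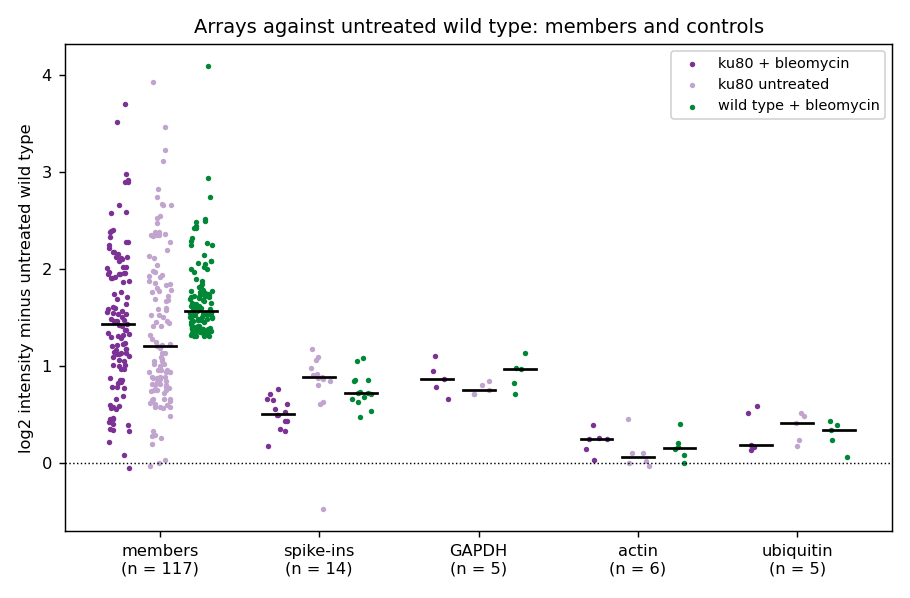
The y axis gives log2 intensity minus that of the untreated wild type array, for the 117 members and for the spike-in, GAPDH, actin and ubiquitin control probe sets, with 1 colour per array and black bars at the medians. Members had medians of 1.43 in ku80 with bleomycin, 1.21 in untreated ku80 and 1.56 in wild type with bleomycin, while GAPDH controls had 0.87, 0.75 and 0.97.

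Among the members with untreated ku80 at the treated wild type level, the largest wild type differences included genes known from oxygen shortage. AT3G29970, which encodes a B12D protein and is induced by low oxygen, had intensities of 365 in ku80 with bleomycin, 427 in untreated ku80, 478 in wild type with bleomycin and the floor of 28 in untreated wild type. It was therefore at least 17.1-fold higher with the drug in wild type, and untreated ku80 was at least 15.2-fold above untreated wild type. AT4G10270, a gene of the wound-responsive family that is induced by low oxygen, had 303 and 322 in ku80 with and without the drug, and 391 and 50.9 in wild type with and without it. For this gene 3 arrays lay together and untreated wild type lay 7.68-fold below treated wild type.

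AT5G10040, which encodes a small protein of unknown function and is induced by low oxygen, had 147 and 156 in ku80 with and without bleomycin, and 160 and the floor in wild type. AT4G33560, also of the wound-responsive family, had 130 and 177 in ku80 with and without the drug, and 158 and the floor in wild type. Both were higher in treated than in untreated wild type (5.73-fold and 5.65-fold as lower bounds), and their ku80 values lay near that of treated wild type on both arrays. Of the hypoxia list, 3 of 10 genes had a probe set with a single gene name here. All 3 were measured, and AT4G10270 was the 1 member. AT1G33055 missed the rule at the edge, with 351 and 508 in ku80 with and without the drug and 248 and 58.4 in wild type, while AT3G10040, a trihelix transcription factor gene, had 34.3 and 62.3 in ku80 and was at the floor in wild type with and without bleomycin.

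SBT3.5, a subtilase that processes a pectin methylesterase in the wall, had 309 and 225 in ku80 with and without bleomycin, against 211 and 39.2 in wild type. cwINV6, a fructan exohydrolase of the cell wall invertase family, had 106 and 123 in ku80 and 154 and 32.4 in wild type. AT4G16260, a beta-1,3-glucanase-like glycosyl hydrolase, was the brightest of the named members of this pattern, with 1698 and 1533 in ku80 and 1122 and 351 in wild type. Its values in ku80 were above those of treated wild type on both arrays.

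AT4G22470 and AT4G12490 encode proteins of the protease inhibitor and lipid transfer family. AT4G22470 had 484 and 399 in ku80 with and without bleomycin and 514 and 109 in wild type, and AT4G12490 had 367 and 323 in ku80 and 311 and 84.8 in wild type. Both had 3 arrays within a narrow range and untreated wild type far below. AT2G42360, which encodes a RING-type protein, had 105 and 99.2 in ku80 and 102 and 28.8 in wild type. AT3G51440, of the strictosidine synthase-like family, and AT3G19660, whose function is not named here, were at the floor in untreated wild type and at least 3.71-fold and 3.51-fold higher with the drug there.

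The dimmer named members of this pattern include AT3G05950, a germin-like gene (105 and 92.3 in ku80 with and without bleomycin, 80.5 and the floor in wild type), and AT2G29500, a small heat shock protein gene (108 and 127 in ku80, 94.3 and 35.4 in wild type). AT5G44380, a berberine bridge enzyme-like oxidase gene, had 295 and 227 in ku80 and 217 and 75.3 in wild type. These 3 genes were chosen after their values were seen. In each of them both ku80 arrays stood above treated wild type.

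In 6 named members untreated ku80 lay above treated wild type by more than 0.5 on the log2 scale. AT2G41730 had 258 and 300 in ku80 with and without bleomycin and 116 and 34.6 in wild type, though its probe set is of a kind that may also detect similar transcripts, which makes its values uncertain. YLS5, a DJ-1 family gene linked to leaf senescence, had 531 and 622 in ku80 and 341 and 122 in wild type. AT5G38900, of the thioredoxin superfamily, had 245 and 276 in ku80 and 164 and 38.9 in wild type. AT3G54150, a methyltransferase-like gene, AT5G42830, an acyltransferase-like gene, and AT1G57630, which encodes a TIR-domain protein, were 5.22-fold, 5.13-fold and at least 4.56-fold higher in untreated ku80 than in untreated wild type. Over all 10 members of this pattern, the ku80 minus wild type difference was 2.19 to 3.46 without the drug and 0.53 to 1.90 with it. That ku80 was higher in both conditions is fixed by the choice of members and the definition of this pattern.

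**Figure D4:**
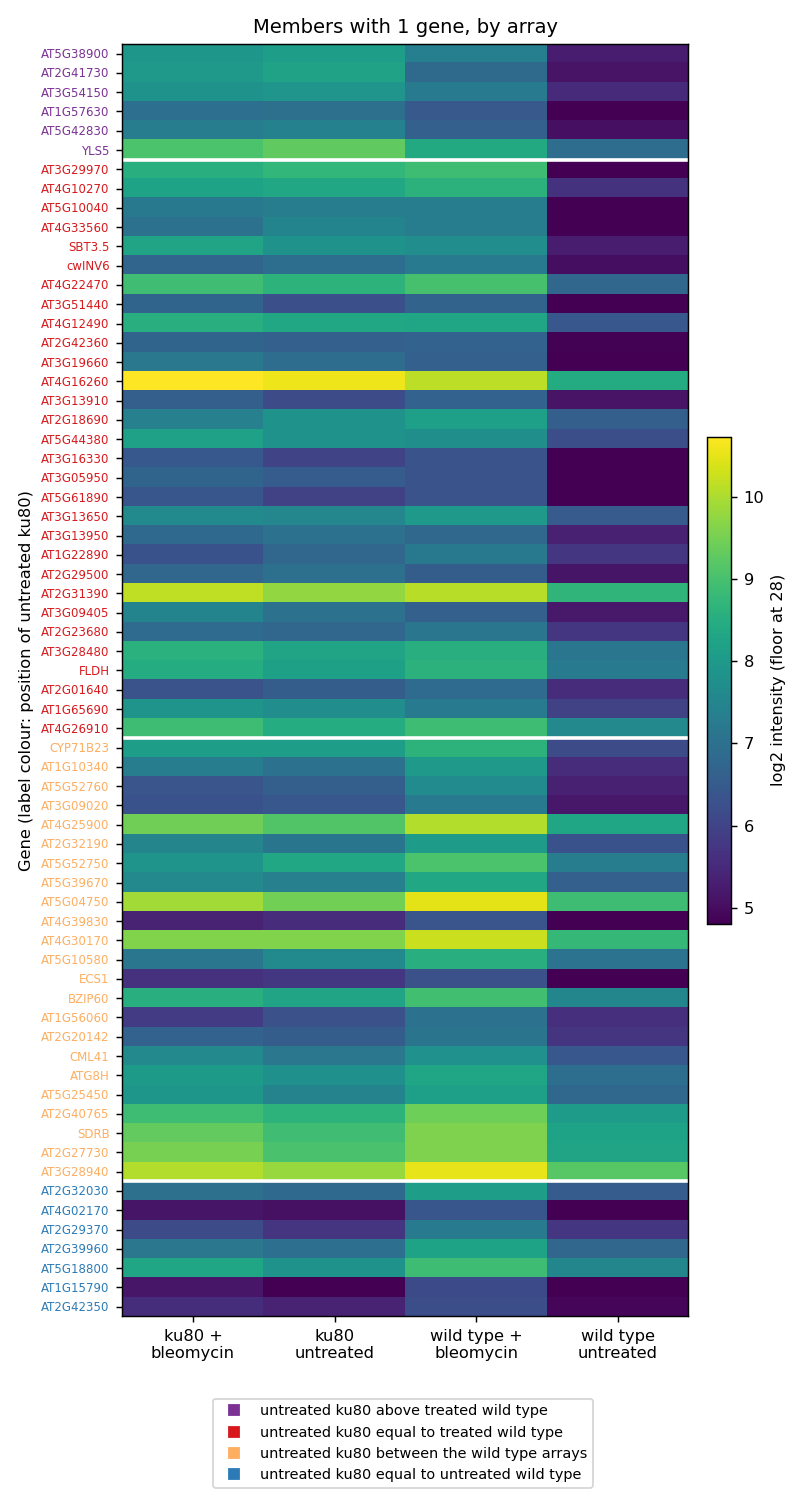
Rows are the 66 members with 1 gene, columns are the 4 arrays, and the colour gives log2 intensity with the floor at 28; label colours give the position of untreated ku80, from above treated wild type at the top to equal to untreated wild type at the bottom. Dark colours are low values, and the untreated wild type column is the darkest in most rows, while the ku80 columns resemble each other as the choice of members requires.

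In the intermediate pattern, 41 members had untreated ku80 above untreated wild type by 0.56 to 1.97 and below treated wild type by more than 0.5. CYP71B23, a cytochrome P450 gene, had 276 and 280 in ku80 with and without bleomycin and 397 and 71.2 in wild type, which placed it at the upper edge of this pattern. AT1G10340, which encodes an ankyrin repeat protein, had 159 and 130 in ku80 and 255 and 47.5 in wild type. AT3G09020, a glycosyltransferase-like gene, had 79.3 and 85.2 in ku80 and 151 and 36.4 in wild type. Treated ku80 was below treated wild type in all 41, as the choice of members and the definition of this pattern require. The median difference was -0.55 on the log2 scale, and 9 were at least 2-fold lower.

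AT5G52750 and AT5G52760, neighbours on chromosome 5 that both encode proteins with a heavy metal-associated domain, belong to this pattern. AT5G52760 had 82.2 and 96.9 in ku80 with and without bleomycin and 204 and 41.0 in wild type. AT5G52750 had 234 and 329 in ku80 and 529 and 157 in wild type. For both genes treated wild type was the highest array and untreated wild type the lowest, with untreated ku80 above treated ku80 between them.

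CML41, a calmodulin-like calcium sensor, had 192 and 143 in ku80 with and without the drug and 223 and 85.5 in wild type, and untreated ku80 was below untreated wild type by -0.15 (log2) after spike-in scaling. It was the 1 member among 8 measured calcium sensor probe sets, whose median wild type difference was 0.39. BZIP60, a transcription factor of the unfolded protein response that was chosen here after its values were seen, had 369 and 309 in ku80 and 490 and 185 in wild type. ATG8H, an autophagy protein of the ATG8 family, had 263 and 219 in ku80 and 315 and 123 in wild type, and its untreated difference of ku80 minus wild type was -0.0651 after spike-in scaling. It was the 1 member among 5 measured autophagy genes, and APG8A lay just outside with 463 and 324 in ku80 and 608 and 238 in wild type.

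Members that encode mitochondrial proteins were noticed after the values were seen, and no list of such genes was counted. AT5G25450, a subunit of respiratory complex III, had 245 and 175 in ku80 with and without bleomycin and 284 and 111 in wild type. AT4G26910, a subunit of the 2-oxoglutarate dehydrogenase complex, had 476 and 358 in ku80 and 478 and 194 in wild type. AT5G18800, a subunit of complex I, had 311 and 229 in ku80 and 478 and 183 in wild type. The 3 genes were higher in treated than in untreated ku80 by 0.48, 0.41 and 0.44, close to the upper edge of the band. After spike-in scaling the untreated difference of ku80 minus wild type was -0.24 for AT5G25450, -0.0075 for AT4G26910 and -0.57 for AT5G18800, so its sign turned for the 3 genes.

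In 9 members untreated ku80 stood at the untreated wild type level. AT2G32030, an acetyltransferase-like gene, had 127 and 113 in ku80 with and without bleomycin, against 281 and 93.2 in wild type. AT2G29370, of the tropinone reductase-like family, had 71.4 and 52.0 in ku80 and 151 and 53.3 in wild type. AT2G39960, a signal peptidase subunit gene, had 143 and 125 in ku80 and 302 and 109 in wild type. In these 3 genes treated wild type stood alone, at 3.02-fold, 2.83-fold and 2.78-fold above untreated wild type.

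AT4G02170 and AT1G15790 were dim, at 35.4 and 35.7 in ku80 with bleomycin and 84.4 and 70.1 in wild type with it, and both were at the floor in untreated wild type. With a floor of 14 the untreated ku80 minus wild type difference of AT1G15790 was 0.68, outside the width of 0.5. AT2G42350, the neighbour of AT2G42360 on chromosome 2 and also of the RING type, had 47.8 and 42.3 in ku80 and 74.7 and 30.3 in wild type. The neighbours thus fell into different patterns: AT2G42360 was at the treated wild type level in untreated ku80, and AT2G42350 was within 0.48 of untreated wild type, near the limit of 0.5. Over the 9 members treated ku80 was lower than treated wild type by a median of -1.08 on the log2 scale, and 5 were at least 2-fold lower. That treated ku80 was lower at all is fixed by the choice of members and the definition of this pattern.

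The 51 members without a single gene name were spread over the same patterns, with 27 at the treated wild type level in untreated ku80, 4 above it, 18 between the wild type arrays and 2 at the untreated level. Their wild type differences ran from 1.31 to 2.74. The largest was at a probe set with 890 and 1118 in ku80 with and without the drug and 801 and 120 in wild type. Another unnamed probe set, 1 of the 2 at the untreated level, had 415 and 440 in ku80 and 1329 and 433 in wild type, so treated wild type stood alone.

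Along the genome, the 66 named members lay on all 5 nuclear chromosomes, with 9 on chromosome 1, 16 on chromosome 2, 17 on chromosome 3, 11 on chromosome 4 and 13 on chromosome 5, or 0.417% to 1.29% of measured named probe sets. Among these 66, the pairs of AT2G42350 with AT2G42360 and of AT5G52750 with AT5G52760 were directly next to each other in the order of protein-coding genes, the other 51 members not being placed, and AT3G13910 and AT3G13950 had 3 genes between them.

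Of 115 distinct measured probe sets in the 24 gene lists, 4 were members (3.48%, beside 0.762% of all measured probe sets and 0.79% of those with 1 gene). The lists were chosen with earlier results of these data known, so this gap tests nothing. Probe sets were measured for 19 lists, and 4 lists held 1 member each: hypoxia (AT4G10270), autophagy (ATG8H), calcium sensors (CML41) and cytochrome P450 (CYP71B23, among 15 measured names of which some are cyclophilins with a like prefix). The 15 other measured lists held 0 members, and at that overall share lists of this size say nothing by holding none. Families were matched by gene name, so genes that carry only a locus name were mostly missed. Such members include AT2G29500 (small heat shock protein), AT3G09020 (glycosyltransferase-like) and the RING-type AT2G42350 and AT2G42360. A list with 0 members therefore does not mean that the family is absent from the members. For DNA damage response genes 1 of 18 was measured, the meiotic recombination gene ATMND1, at 66.8 in ku80 and 45.2 in wild type with bleomycin and at the floor on both untreated arrays. ATLIG4, the end joining ligase gene, had 56.7 and 48.3 in ku80 with and without bleomycin and 46.1 and 37.3 in wild type.

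A pair of listed genes, chosen after their values were seen, missed the rule because they were lower with bleomycin in ku80. CHI, a putative chitinase gene, had 235 and 365 in ku80 with and without the drug and 208 and 35.7 in wild type, a ku80 difference of -0.64. GSTU25, a glutathione transferase gene, had 93.2 and 160 in ku80 and 131 and the floor in wild type, a ku80 difference of -0.78. Of the 5 leaf markers listed, 2 were measured, with a summed intensity of 2247 and 3566 in ku80 with and without bleomycin and 2462 and 3015 in wild type. They differed from each other: RCA, the Rubisco activase gene, had 1758 and 2671 in ku80 and 1948 and 1926 in wild type, while SBPASE, a Calvin cycle enzyme gene, had 489 and 896 in ku80 and 515 and 1089 in wild type. Of 7 root markers the 1 named on the array, EXPA7, was at 31.3 in treated wild type and at the floor on the other arrays, and no flower marker was named.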

How the data were processed

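RNA of 4 pools was measured on Affymetrix ATH1 arrays. The authors deposited an intensity on a linear scale for each probe set of each array. Its mean after trimming 2% from either end was 100.0 on every array. The summary software was not given in the sources used here. The 64 control probe sets were set aside, values below 28 were set to 28 and log2 was taken, without further scaling. Names came from the platform table (13513 probe sets with 1 gene, 503 with several, 8730 unnamed here), updated through RefSeq (TAIR10.1), which matched 13436. Calculations used Python 3.11.15, pandas 2.3.3 and scipy 1.17.1. The selection code was run on simulated arrays holding members of known pattern, which checks the code and not the reliability of the selection. With 1 array per group, no test was run and precision between pools is unknown. The members and gene lists were chosen with earlier results of these data known. Named genes are members with 1 gene: the 15 with the largest wild type difference, up to 12 with the largest where untreated ku80 equals treated wild type and up to 12 where it equals untreated wild type, up to 5 at either extreme of untreated ku80, members of the 24 lists (9 by gene ID, 15 by family name) and the 3 genes nearest each threshold. Other genes named in the text were chosen after their values were seen. Alternatives covered scaling, floor, thresholds and probe set filters.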

Additional observations from a re-analysis of the deposited data

Results flagged for a closer look

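At 2 members the genotypes differed in opposite directions without and with bleomycin, by at least 2-fold each way. AT5G52760 was higher in ku80 by 1.24 (log2) without the drug and at -1.31 with it. AT5G52750 was at 1.06 without the drug and at -1.18 with it. The difference between the conditions was not tested, since each group had 1 array, and it is tied to the choice of members. After spike-in scaling the difference without the drug was 0.35 at AT5G52760 and 0.17 at AT5G52750, and with a floor of 56 it was 0.79 at AT5G52760, so it was then under 2-fold.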

How the results depend on the processing

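No paired analysis was possible because each group had 1 array, and no replicate was available to leave out. The 117 members numbered 286 with a wild type minimum of 1, 20 with a minimum of 2, 72 with a ku80 band of 0.3 and 26 after spike-in scaling, which was chosen after seeing the data and kept 16 of the 117. Their number was 174 with a floor of 14, 87 with a floor of 56 and 170 with a ku80 band of 0.7. It was 140 with median-ratio scaling and 141 with quantile normalization. Untreated ku80 equalled treated wild type in 60% of members with a minimum of 2, and in 22.2% and 67.5% with an equality width of 0.3 and 0.7. It equalled untreated wild type in 27.3% with a minimum of 1, 0% with a minimum of 2, 16.2% with a width of 0.7 and 15.4% after spike-in scaling. The median ku80 minus wild type difference without bleomycin was 1.08 with median-ratio scaling, and 1.05 and 0.95 with floors of 14 and 56. It was 0.75 and 2.33 with minima of 1 and 2, and 1.49 with a band of 0.3. With spike-in scaling it was 1.71, over the 26 members chosen anew and not over the 117. Of the 117 themselves, 78 had untreated ku80 above untreated wild type in that scaling. With bleomycin the median genotype difference was -0.30 with median-ratio scaling, -0.30 with a floor of 14, -0.28 with a minimum of 1 and -0.32 with a minimum of 2. After spike-in scaling untreated ku80 was below untreated wild type at 12 of the 37 members named by rule, 11 of which were above it on the deposited scale: AT5G10580 (-0.32), CML41 (-0.15), ATG8H (-0.0651), AT5G25450 (-0.24), AT2G27730 (-0.14), AT4G26910 (-0.0075), AT2G39960 (-0.70), AT2G32030 (-0.62), AT5G18800 (-0.57), AT2G42350 (-0.41) and AT4G02170 (-0.33). AT2G29370 was at -0.93 and was slightly below on the deposited scale too (-0.04). Spike-in scaling multiplies each array by 1 factor, 0.776 for untreated ku80 and 1.44 for untreated wild type. It therefore lowers the untreated difference by the same log2 amount at every member above the floor before and after scaling. The turned signs mark small deposited differences and not a behaviour of single genes. Of the 37 members named by rule, 6 met the rule in all 11 settings that were tried. Why the spike-in signals differed between the arrays was not tested.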
